A study of Mus musculus with 6 samples.

Results

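Ptprc, Arhgdib, Lcp1, Itgb2, Rac2, Vav1, Spi1, Plek, Dock2 and Ctss are genes of leukocytes, though not every kind of leukocyte expresses all of them. Such genes are often read together as the leukocyte content of a tissue. These were taken as a named set of 10 genes out of the 10772 genes that could be named by position in the count tables, and all 10 were measured and tested. RNA was measured in bulk in 3 sgUhrf1 tumours, grown from LG1233-OVA cells edited with CRISPR/Cas9 and a guide against Uhrf1, and in 3 sgNT tumours, grown from LG1233-OVA cells with the control guide and labelled WT. LG1233-OVA is a murine lung cancer line, and the suffix OVA marks lines that carry ovalbumin as a model antigen, so both groups share that antigen. All tumours came from 1000000 cells placed subcutaneously in female C57BL/6 hosts and were taken on day 27. The host mice were not edited, and the labels do not give the age of the mice, the place of the guide, or whether the edited line was a clone or a pool. The labels call the tumours biological replicates, without naming the animals.

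Each tumour gave between 5462555 and 6375069 counts, spread over 16051 to 18771 rows of the count table. The row that covers 690 bp of Uhrf1 exons stood at 121, 73.0 and 89.9 CPM (counts scaled to a library of 1000000) in sgUhrf1 tumours, against 133, 136 and 98.2 CPM in sgNT tumours. The groups overlapped, since sgUhrf1 replicate 1 was above sgNT replicate 3, and the difference did not pass the test (log2 fold change -0.37 ± 0.23 SE, edgeR adjusted p = 0.227), and RNA in the tumour does not tell whether the edited gene still makes protein. The count tables name their rows after another genome build than the reads were aligned to, so rows were named by the gene whose exons they cover, where that is a single gene. The rows of the 10 genes cover 87 to 427 bp of exon, which is 3.30% to 33.2% of the length of the row, and none of them carries its own gene's name in the table.

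Most of these genes serve leukocyte movement and receptor signalling. Surface receptors and β2 integrins of leukocytes signal through tyrosine kinases and phosphatases to exchange factors such as Vav1 and Dock2, which load the small GTPase Rac2 with GTP. Active Rac drives the assembly of actin filaments, which leukocytes need to crawl, to form synapses and to engulf particles. In the myeloid and B lineages the transcription factor PU.1, encoded by Spi1, binds purine-rich sites with a GAGGAA core and switches on many of these genes.

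The promoters of 3 genes that rose, and of Ptprc as the gene that the others are compared with, are shown because they let the PU.1 core be seen in place. They run from 250 bases before to 50 bases after the start of transcription, 5′ to 3′ on the strand of the gene, from RefSeq on GRCm38.p6, and capitals mark GAGGAA or its reverse complement TTCCTC. Vav1 is at chr17:57278850-57279149 (plus strand), Plek at chr11:17008669-17008968 (minus strand), Ctss at chr3:95526536-95526835 (plus strand) and Ptprc at chr1:138175256-138175555 (minus strand). Ptprc has a second RefSeq window, at chr1:138175077-138175376, which holds no GAGGAA and is not printed.
Vav1 promoter: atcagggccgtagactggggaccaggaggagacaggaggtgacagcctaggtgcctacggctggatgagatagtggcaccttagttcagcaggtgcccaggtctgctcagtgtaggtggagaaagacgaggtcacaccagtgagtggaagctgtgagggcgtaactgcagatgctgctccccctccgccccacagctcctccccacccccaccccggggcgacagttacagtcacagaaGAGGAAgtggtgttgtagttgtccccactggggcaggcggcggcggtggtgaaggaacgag
Plek promoter: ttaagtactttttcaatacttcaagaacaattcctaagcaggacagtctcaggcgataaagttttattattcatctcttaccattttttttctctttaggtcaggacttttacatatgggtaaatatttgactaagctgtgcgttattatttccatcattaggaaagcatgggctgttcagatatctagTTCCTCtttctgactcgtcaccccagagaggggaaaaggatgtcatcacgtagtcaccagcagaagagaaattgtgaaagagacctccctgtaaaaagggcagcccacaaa
Ctss promoter: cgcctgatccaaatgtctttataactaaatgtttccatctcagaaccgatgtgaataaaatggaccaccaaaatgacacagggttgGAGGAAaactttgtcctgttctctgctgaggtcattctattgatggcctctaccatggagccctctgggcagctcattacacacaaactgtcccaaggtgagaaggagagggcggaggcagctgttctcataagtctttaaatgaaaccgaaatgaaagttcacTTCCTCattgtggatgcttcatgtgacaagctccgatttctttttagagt
Ptprc promoter: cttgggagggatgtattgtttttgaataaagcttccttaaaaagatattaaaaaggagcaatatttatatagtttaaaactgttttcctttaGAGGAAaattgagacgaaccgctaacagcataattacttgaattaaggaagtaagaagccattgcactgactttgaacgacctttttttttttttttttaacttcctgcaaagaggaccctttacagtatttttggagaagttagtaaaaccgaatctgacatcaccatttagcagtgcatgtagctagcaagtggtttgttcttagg

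GAGGAA was found on either strand in 6 of 11 promoter windows, which belong to 7 of the 10 genes, and each of these 7 except Lcp1 had a window with it. Of all 32851 RefSeq promoters of the same length, 28.3% held it. The match in Vav1 begins 11 bases before the start of transcription, the one in Plek 61 bases before it, and the one in Ptprc 158 bases before it. In Ctss a match begins 164 bases before the start and another begins at the start. The longer GAGGAAGT, which contains GAGGAA, was found in 2 of the 11 windows, those of Vav1 and Ctss, and in 3.20% of all promoters. TATAAA was found in 3 of the 11 windows and in 13.6% of all promoters. A match of letters is a description and not a measured binding site.

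The 10 genes did not move together. Vav1, Plek and Ctss, each read from its most-counted row, rose in sgUhrf1 tumours, by 3.66-fold, 2.84-fold and 2.72-fold, and none of the 10 fell. These 3 of 10 genes stand beside 20.2% of all 10503 rows tested that were higher and 19.7% that were lower at an adjusted p under 0.05. With only 10 genes, a count of 3 higher is near the share over all rows. The median log2 fold change was 0.26 over the 10 genes and 0.02 over all rows tested. All sgUhrf1 tumours were above all sgNT tumours in 4 of the 10 genes, where 26.6% of all rows were so, and below them in 1 of the 10, where 27.8% of all rows were so. At an unadjusted p under 0.05, Rac2 was higher and Itgb2 and Arhgdib were lower as well. Itgb2 and Arhgdib, 2 of the 10 genes, passed the adjusted threshold as lower without the filter on low counts (9.05% of all rows lower), with limma-voom (20.1%) and without sgUhrf1 replicate 3 (16.6%), and Itgb2 alone passed with a filter of at least 50 counts in 3 tumours (24.0%). In bulk RNA, fewer cells of a type and less RNA per cell cannot be told apart. All levels below are CPM scaled by the trimmed mean of M-values (TMM), given for replicates 1, 2 and 3 in turn, and tests are the quasi-likelihood test of edgeR with Benjamini-Hochberg adjustment over all rows tested.

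**Figure D1:**
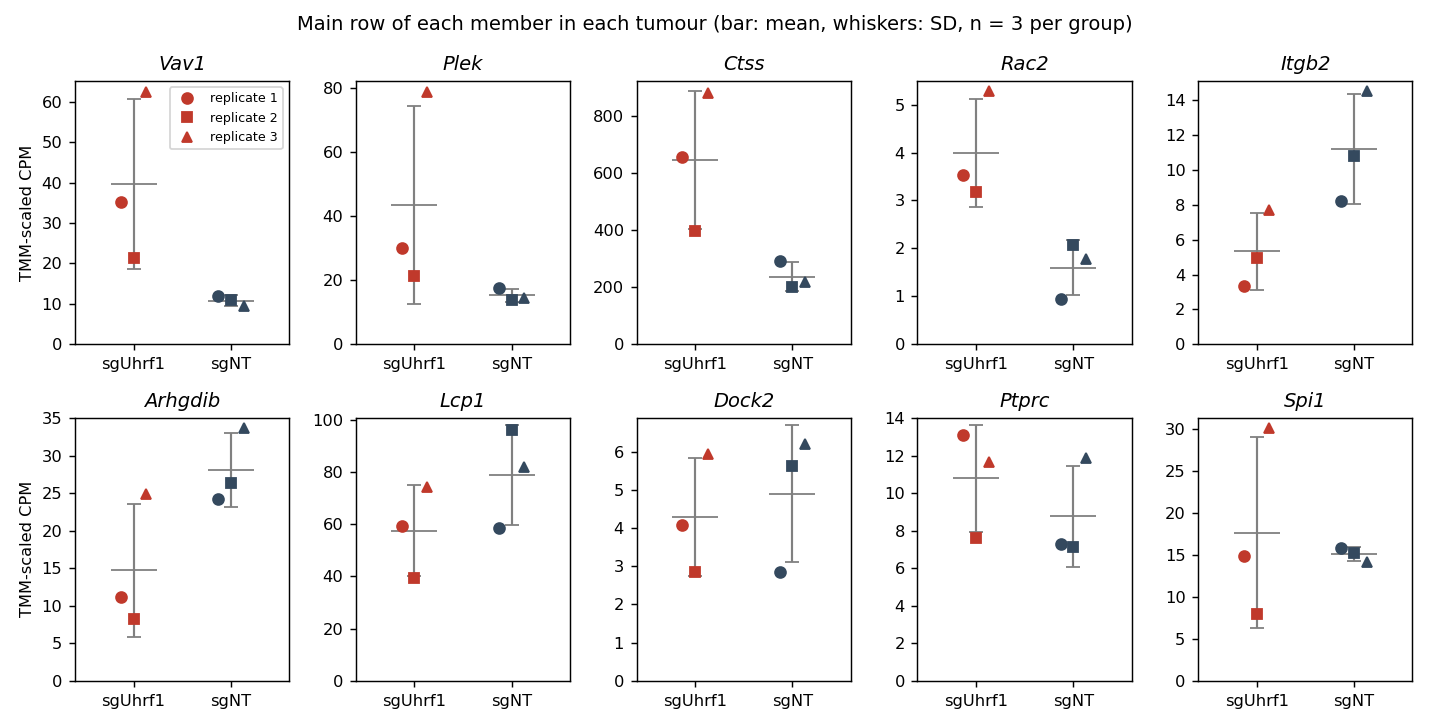
Levels of the 10 genes (called members in the plots) in TMM-scaled CPM, 1 panel per gene with its own axis from 0, with a point for each tumour, a bar at the group mean and whiskers of 1 SD (n = 3 each). The groups are apart, with sgUhrf1 tumours higher, for Vav1, Plek, Ctss and Rac2, apart the other way for Itgb2, and overlap for the other 5 genes.

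Vav1 is a guanine nucleotide exchange factor that couples antigen receptors and integrins to Rac, and it lies on chromosome 17 at 57279100-57328031 (GRCm38, plus strand). Its most-counted row, listed as Gm17949, held 35.1, 21.3 and 62.4 CPM in sgUhrf1 tumours, against 12.0, 10.8 and 9.39 CPM in sgNT tumours. Every sgUhrf1 tumour was above every sgNT tumour, and replicate 3 was the highest of its group. The group means were 39.6 ± 21 CPM and 10.7 ± 1.32 CPM (SD, n = 3 each), and the log2 fold change was 1.87 ± 0.38 (SE) at an adjusted p of 0.00508. This row covers the 3′ end of the gene, with 115 bp of coding exon, 83 bp of non-coding exon, 899 bp of intron and 82 bp beyond the gene.

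Rows further 5′ in Vav1 did not pass the test. The Clpp row covers 270 bp of coding exon and 953 bp of intron and held 20.4, 10.3 and 32.1 CPM in sgUhrf1 tumours, against 13, 19.0 and 20.2 CPM in sgNT tumours, and the groups overlapped (log2 fold change 0.26 ± 0.40, adjusted p = 0.635). The Alkbh7 row, with 206 bp of coding exon and 823 bp of intron, held 10.8, 6.83 and 19.1 CPM in sgUhrf1 tumours, against 7.13, 9.34 and 10.5 CPM in sgNT tumours, and also overlapped (0.44 ± 0.41, adjusted p = 0.419). The Gtf2f1 row, next in order and with 36 bp of exon, stood at 0.91 ± 0.42 (adjusted p = 0.111). From 5′ to 3′ the log2 fold changes of the 4 rows were therefore 0.26, 0.44, 0.91 and 1.87. With all rows of Vav1 summed the log2 fold change was 0.94 and no longer passed (adjusted p = 0.0599).

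The coding stretches below are the largest under the Alkbh7 row and the only one under the Gm17949 row, and are shown as examples of the Vav1 message that each row counts. The Alkbh7 row also counts coding stretches of 23 and 46 bp, and the Gm17949 row 83 bp of non-coding exon. They are exons 20 and 25 of the 27 in the GENCODE M21 transcript, at chr17:57306107-57306243 and chr17:57318628-57318742 on the plus strand of GRCm38.
Vav1 exon 20: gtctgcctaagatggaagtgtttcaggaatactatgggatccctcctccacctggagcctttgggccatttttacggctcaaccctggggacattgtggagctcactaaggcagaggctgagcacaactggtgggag
Vav1 exon 25: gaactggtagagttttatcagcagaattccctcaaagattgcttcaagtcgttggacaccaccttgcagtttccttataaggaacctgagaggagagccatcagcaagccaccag

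**Figure D2:**
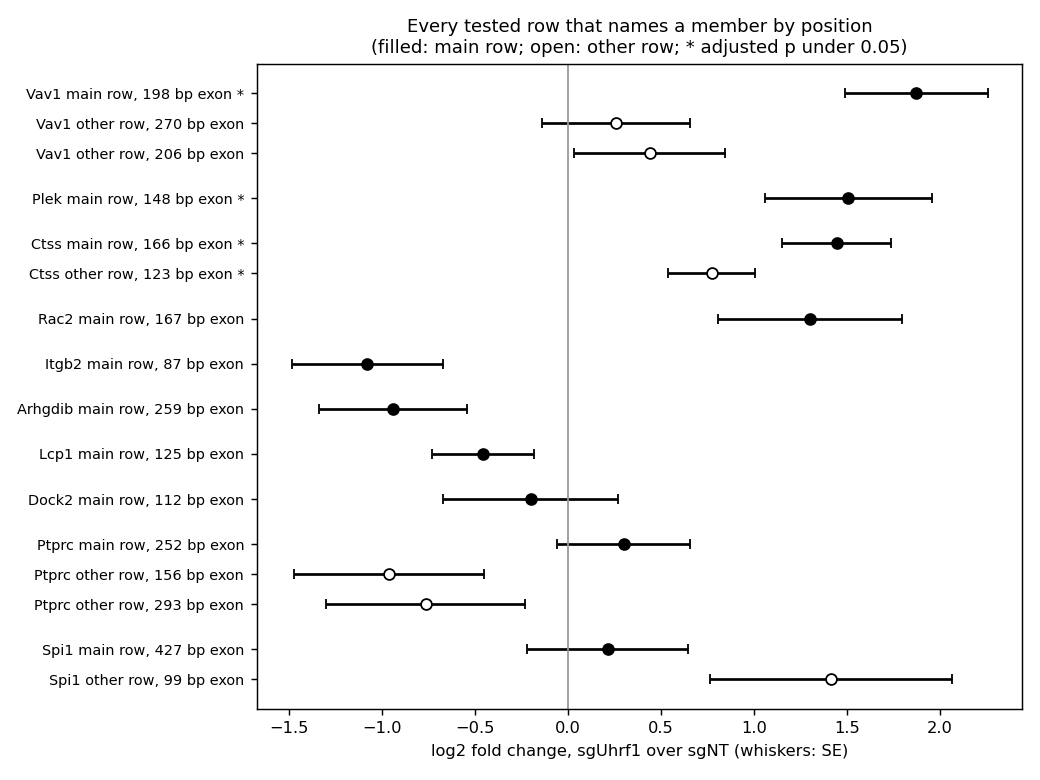
Log2 fold change, sgUhrf1 over sgNT, with SE bars, for every tested row that names 1 of the 10 genes by at least 50 bp of exon, grouped by gene, with filled points for the most-counted row, open points for other rows and a star past an adjusted p of 0.05. The 3 Vav1 rows run between 0.26 and 1.87, and both Ctss rows are above 0.

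Dock2, an atypical exchange factor for Rac that lymphocytes use in chemotaxis, lies on chromosome 11 at 34226815-34783892 (minus strand). Its row, with 112 bp of coding exon and 523 bp of intron, held 4.07, 2.86 and 5.94 CPM in sgUhrf1 tumours, against 2.85, 5.63 and 6.20 CPM in sgNT tumours. The groups overlapped, at 4.29 ± 1.55 CPM and 4.90 ± 1.79 CPM (SD, n = 3 each), and the log2 fold change of -0.20 ± 0.47 did not pass (adjusted p = 0.765). Only 18 to 38 counts per tumour lay behind these values. A row that covers exons of Dock2 and Foxi1 together did not pass either (0.11 ± 0.40, adjusted p = 0.847).

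Rac2 is the Rac GTPase of blood cells, on chromosome 15 at 78559167-78572783 (minus strand). Its row, with 167 bp of non-coding exon and 336 bp beyond the gene, held 20, 20 and 24 counts in sgUhrf1 tumours, against 6, 14 and 10 counts in sgNT tumours. In scaled units this was 3.54, 3.17 and 5.28 CPM against 0.950, 2.08 and 1.77 CPM, and the groups did not overlap. The means of 4.0 ± 1.12 CPM and 1.6 ± 0.582 CPM (SD, n = 3 each) gave a log2 fold change of 1.30 ± 0.50 that did not pass (adjusted p = 0.0634). A row of 8112 bp covers 53 bp of Rac2 exon together with exons of Cyth4 and Gm6723, and its reads cannot be split between these genes. This shared row was higher in sgUhrf1 tumours (28.2, 30.3 and 52.3 CPM against 10.9, 13.6 and 9.22 CPM, log2 fold change 1.71 ± 0.31, adjusted p = 0.00324).

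Arhgdib encodes a GDP dissociation inhibitor of blood cells, which holds Rac proteins inactive in the cytosol, and lies on chromosome 6 at 136923655-136941899 (minus strand). Its row held 11.2, 8.25 and 24.8 CPM in sgUhrf1 tumours, against 24.2, 26.4 and 33.7 CPM in sgNT tumours. Replicate 3 of the sgUhrf1 group was within the sgNT range, and replicates 1 and 2 were below it. The means were 14.8 ± 8.86 CPM and 28.1 ± 4.95 CPM (SD, n = 3 each), and the log2 fold change was -0.94 ± 0.40 (adjusted p = 0.0880). The row covers 259 bp of 5′ non-coding exon among 7846 bp that also span the neighbouring gene Pde6h. Without sgUhrf1 replicate 3 it passed the threshold at -1.54 (adjusted p = 0.00649). With any other tumour left out it did not pass. It stood at -0.66 without sgUhrf1 replicate 2 (adjusted p = 0.199) and at -0.80 without sgNT replicate 3 (adjusted p = 0.223).

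Lcp1 encodes L-plastin, which bundles actin filaments at the leading edge of leukocytes, on chromosome 14 at 75131101-75230842 (plus strand). Its row, with 125 bp of coding exon and 1331 bp of intron, held 59.3, 39.2 and 74.1 CPM in sgUhrf1 tumours, against 58.6, 96.2 and 81.7 CPM in sgNT tumours. The groups overlapped and the log2 fold change of -0.46 ± 0.27 did not pass (adjusted p = 0.213).

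Plek encodes pleckstrin, a substrate of protein kinase C in platelets and leukocytes, on chromosome 11 at 16971206-17052381 (minus strand). Its row held 30.1, 21.3 and 78.7 CPM in sgUhrf1 tumours, against 17.6, 13.6 and 14.4 CPM in sgNT tumours. Every sgUhrf1 tumour was above every sgNT tumour, but replicate 3 stood far above replicates 1 and 2. The means were 43.4 ± 30.9 CPM and 15.2 ± 2.10 CPM (SD, n = 3 each), and the log2 fold change was 1.51 ± 0.45 (adjusted p = 0.0257). The row covers 148 bp of the 3′ UTR and 1472 bp beyond the gene. Without sgUhrf1 replicate 3 the value was 0.75 and did not pass (adjusted p = 0.0611), and it did not pass without sgNT replicate 1, 2 or 3 either (adjusted p = 0.0560, 0.0882 and 0.0708) or with limma-voom (1.23, adjusted p = 0.0564). Another Plek row, with 186 bp of non-coding exon, was too low to test, at 0, 3 and 0 counts in sgUhrf1 tumours and 0 counts in every sgNT tumour.

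Ptprc encodes CD45, the receptor tyrosine phosphatase on nearly all leukocytes, on chromosome 1 at 138062861-138175708 (minus strand). Its most-counted row, with 252 bp of coding exon and 5612 bp of intron, held 13.1, 7.62 and 11.7 CPM in sgUhrf1 tumours, against 7.28, 7.12 and 11.9 CPM in sgNT tumours. The groups overlapped, at 10.8 ± 2.84 CPM and 8.76 ± 2.70 CPM (SD, n = 3 each), and the log2 fold change of 0.30 ± 0.36 did not pass (adjusted p = 0.534).

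The other tested rows over Ptprc pointed the other way without passing. The row that carries the name Ptprc, with 156 bp of coding exon and 14867 bp beyond the gene, held 4.43, 3.97 and 3.30 CPM in sgUhrf1 tumours, against 4.12, 5.19 and 13.6 CPM in sgNT tumours (log2 fold change -0.96 ± 0.51, adjusted p = 0.164). The Tent2-ps2 row held 5.31, 2.06 and 2.20 CPM in sgUhrf1 tumours, against 3.01, 5.93 and 7.44 CPM in sgNT tumours (-0.76 ± 0.53, adjusted p = 0.285). The groups overlapped in both rows, and sgNT replicate 3 was the highest of the 6 tumours in each. A row with 673 bp of non-coding Ptprc exon was too low to test, at 23, 8 and 7 counts in sgUhrf1 tumours, against 7, 1 and 6 counts in sgNT tumours. In CPM every sgUhrf1 tumour was above every sgNT tumour in that row, the same direction as the main row.

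Itgb2 encodes CD18, the β chain shared by the leukocyte integrins, on chromosome 10 at 77530252-77565708 (plus strand). Its row held 3.36, 4.92 and 7.70 CPM in sgUhrf1 tumours, against 8.23, 10.8 and 14.5 CPM in sgNT tumours. Every sgUhrf1 tumour was below every sgNT tumour, which held for no other gene of the 10. The means were 5.33 ± 2.19 CPM and 11.2 ± 3.17 CPM (SD, n = 3 each), with a log2 fold change of -1.08 ± 0.41 that did not pass (adjusted p = 0.0605). The row has 87 bp of exon and 263 bp of intron, the least exon among the 10. Without sgUhrf1 replicate 3 it passed at -1.43 (adjusted p = 0.0279). With any other tumour left out it did not pass. It stood at -0.84 without sgUhrf1 replicate 1 (adjusted p = 0.166) and at -0.86 without sgNT replicate 3 (adjusted p = 0.209).

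Spi1 encodes PU.1 itself, on chromosome 2 at 91082390-91115756 (plus strand). Its row, with 427 bp of exon and 3702 bp of intron, held 14.9, 7.94 and 30.1 CPM in sgUhrf1 tumours, against 15.8, 15.3 and 14.2 CPM in sgNT tumours. The sgUhrf1 tumours lay on both sides of the sgNT range, with a log2 fold change of 0.21 ± 0.43 that did not pass (adjusted p = 0.724). A second row, with 99 bp of exon, held 6.20, 3.97 and 14.1 CPM in sgUhrf1 tumours, against 4.91, 3.11 and 0.886 CPM in sgNT tumours, and did not pass either (1.41 ± 0.65, adjusted p = 0.113). Nor did a row that covers exons of Spi1 and of other genes together (0.35 ± 0.24, adjusted p = 0.273).

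Ctss encodes cathepsin S, the lysosomal protease of antigen-presenting cells that trims the invariant chain of MHC class II, on chromosome 3 at 95526786-95556403 (plus strand). Its row, with 166 bp of coding exon and 1576 bp of intron, held 658, 398 and 882 CPM in sgUhrf1 tumours, against 294, 200 and 218 CPM in sgNT tumours. Every sgUhrf1 tumour was above every sgNT tumour. The means were 646 ± 242 CPM and 237 ± 49.5 CPM (SD, n = 3 each), and the log2 fold change was 1.44 ± 0.29 (adjusted p = 0.00481).

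Ctss had a second row that rose. The Ensa row, with 123 bp of Ctss coding exon in 5346 bp, held 276, 193 and 353 CPM in sgUhrf1 tumours, against 184, 151 and 146 CPM in sgNT tumours. The groups did not overlap, and the log2 fold change was 0.77 ± 0.23 (adjusted p = 0.0272). Ctss is the only gene of the 10 with 2 rows past the threshold, and the parts of its message that these rows count, exons 3 and 6 of 8, are at chr3:95538721-95538843 and chr3:95546796-95546961 (plus strand, GRCm38, GENCODE M21 transcript).
Ctss exon 3: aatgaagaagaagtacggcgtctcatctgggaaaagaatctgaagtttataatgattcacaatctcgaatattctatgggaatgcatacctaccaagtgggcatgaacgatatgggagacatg
Ctss exon 6: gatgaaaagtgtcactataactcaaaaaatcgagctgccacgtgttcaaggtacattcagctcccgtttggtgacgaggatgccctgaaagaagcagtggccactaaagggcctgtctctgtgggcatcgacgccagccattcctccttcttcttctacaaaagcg

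Over all rows of the 10 genes, 19 named 1 of them alone, 16 of these were tested, 4 were higher and 0 were lower. Beside these counts, 20.2% of all rows tested were higher and 19.7% lower, and the 4 include both Ctss rows. Where a gene had several tested rows, the log2 ratio of the main row to another differed between the groups without overlap in all 6 pairs, each with an exact permutation p of 0.1, the smallest that 3 tumours against 3 allow. The Vav1 ratio of the Gm17949 row to the Clpp row was 0.77, 1.02 and 0.95 in sgUhrf1 tumours, against -0.11, -0.79 and -1.08 in sgNT tumours. These ratios were chosen after the values were seen, and the pairs of Ptprc and of Vav1 share their main row. The share of such pairs over all genes was not computed. Of all rows tested, taken singly, the sgUhrf1 tumours were all above in 26.6% and all below in 27.8%. Rows of 1 gene did not give the same value here, and each level above belongs to its row, exons and introns together.

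The sgUhrf1 tumours differed among themselves in the same order for nearly all of these genes. Replicate 3 was the highest of its group in 9 of the 10 genes and replicate 2 the lowest in 9 of the 10. The share of all rows with this order was not computed, so the order is not shown to be particular to these genes. The median position of the genes, as log2 above the mean of the group, was -0.04, -0.56 and 0.55 in sgUhrf1 replicates 1, 2 and 3. Among the sgNT tumours the highest was replicate 1 in 4 genes, replicate 2 in 2 and replicate 3 in 4. The TMM factor of sgUhrf1 replicate 3 was 0.813, against 0.995 to 1.09 in the other 5 tumours. Without any TMM factor that tumour was still the highest of its group in 8 of the 10 genes.

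**Figure D3:**
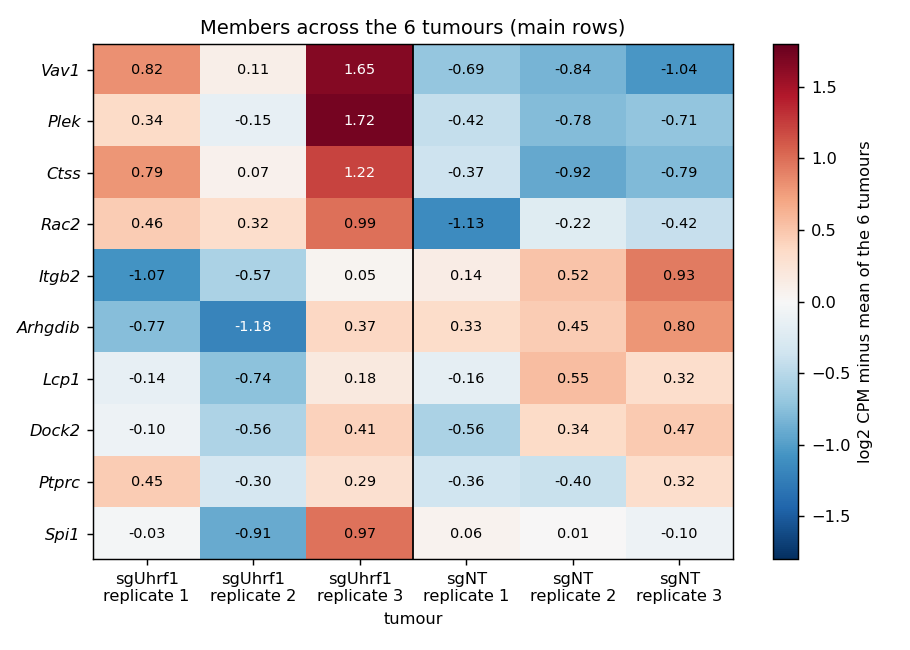
Log2 CPM of each of the 10 genes (down) in each tumour (across, sgUhrf1 left of sgNT), minus the mean of that gene over the 6 tumours, as a colour and a printed value. In the sgUhrf1 group every gene but Ptprc is highest in replicate 3, up to 1.72 for Plek, and every gene but Itgb2 is lowest in replicate 2.

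Because the level of a leukocyte gene can depend on how much leukocyte RNA a tumour holds, each gene was also set against Ptprc within each tumour. Whether Ptprc measures that content here was not tested. The log2 ratio to Ptprc was higher in all sgUhrf1 tumours for Vav1, at 1.74 ± 0.56 in sgUhrf1 tumours and 0.32 ± 0.56 in sgNT tumours (SD, n = 3 each, difference 1.42). The same was seen for Ctss, at 5.82 ± 0.33 in sgUhrf1 tumours and 4.73 ± 0.55 in sgNT tumours (SD, n = 3 each, difference 1.09). The groups did not overlap in either ratio.

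The ratio was lower in all sgUhrf1 tumours for Itgb2, Arhgdib and Lcp1. It was -1.01 ± 0.73 in sgUhrf1 tumours and 0.35 ± 0.21 in sgNT tumours for Itgb2, a difference of -1.36. It was 0.32 ± 0.67 in sgUhrf1 tumours and 1.67 ± 0.18 in sgNT tumours for Arhgdib, a difference of -1.35. For Lcp1 the difference was -0.77. Each of these 5 differences had an exact two-sided permutation p of 0.1, the smallest the design allows, and 0.18 after adjustment over the 9 ratios. The groups overlapped for Plek, Rac2, Dock2 and Spi1, with differences of 0.98, 0.88, -0.46 and -0.27. The Ptprc row had 46 to 74 counts per tumour, which limits all of these ratios. They also depend on the row taken for Ptprc. Against the row that carries the name Ptprc and the Tent2-ps2 row, the main Ptprc row was itself higher in sgUhrf1 tumours, by 1.03 and 1.04 in log2. With all rows of each gene summed, the differences were 0.96 for Vav1, 1.28 for Ctss, -0.94 for Itgb2, -0.93 for Arhgdib and -0.35 for Lcp1. The share of such ratios without overlap over all genes was not computed.

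Other genes of the same pathways were read from lists, and the counts in each direction are set beside the 20.6% of all genes tested by position that were higher and the 21.5% that were lower. All lists here and below were chosen with earlier results of these data known. Their counts and medians therefore describe the listed genes and are no independent support. Of 36 listed genes of the Rac and actin machinery of leukocytes, 17 were measured and 15 tested, and 5 rose and 3 fell (median log2 fold change 0.47, against -0.00 over all genes tested by position). Those that rose included Myo1g, a leukocyte myosin, at 1.86 ± 0.31, Arhgef1, a guanine nucleotide exchange factor, at 1.43 ± 0.18, Dennd1c at 1.32 ± 0.37, and Fgd2, an exchange factor for Cdc42, at 1.18 ± 0.38. Those that fell were Dock8, an exchange factor for Cdc42, at -2.41 ± 0.34, Wdfy4, which serves cross-presentation in dendritic cells rather than actin, at -1.89 ± 0.57, and Wipf1, the partner of the Wiskott-Aldrich syndrome protein, at -1.72 ± 0.35.

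Of 20 genes of β2 integrins and leukocyte adhesion, 9 were measured and 6 tested, and 3 rose and 0 fell, with a median of 1.52. Itgax, the α chain that pairs with CD18 on dendritic cells and some macrophages, stood at 2.15 ± 0.29, the adaptor Skap1 at 1.75 ± 0.41 and the inhibitory receptor Cd300a at 1.37 ± 0.34. Itgax rose while the row of its partner Itgb2 did not.

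Of 42 genes of immune receptor signalling, 18 were measured and 14 tested, and 6 rose and 0 fell, with a median of 0.95. Those with the largest changes were Sp140, a nuclear chromatin reader rather than a receptor component, at 3.70 ± 0.42, the adaptors Dok2 at 2.23 ± 0.25 and Pik3ap1 at 1.65 ± 0.27, and the Src-family kinase Fgr at 1.35 ± 0.28. Of 23 blood cell transcription factors, 10 were measured and 5 tested, and 3 rose and 0 fell, with a median of 1.80. They were Nfatc2, a T cell factor, at 2.77 ± 0.35, Nlrc5, the activator of MHC class I genes, at 2.60 ± 0.46, and Irf8, a partner of PU.1, at 1.80 ± 0.31.

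Of 21 cathepsins and their inhibitors, 7 were measured and 6 tested, and 2 rose and 1 fell, with a median of 0.01, and with 6 genes these counts are near the shares over all genes. Ctsw, a cathepsin of cytotoxic lymphocytes, stood at 4.03 ± 0.69 and Ctsh at 1.71 ± 0.23, while Ctsf stood at -2.0 ± 0.67.

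**Figure D4:**
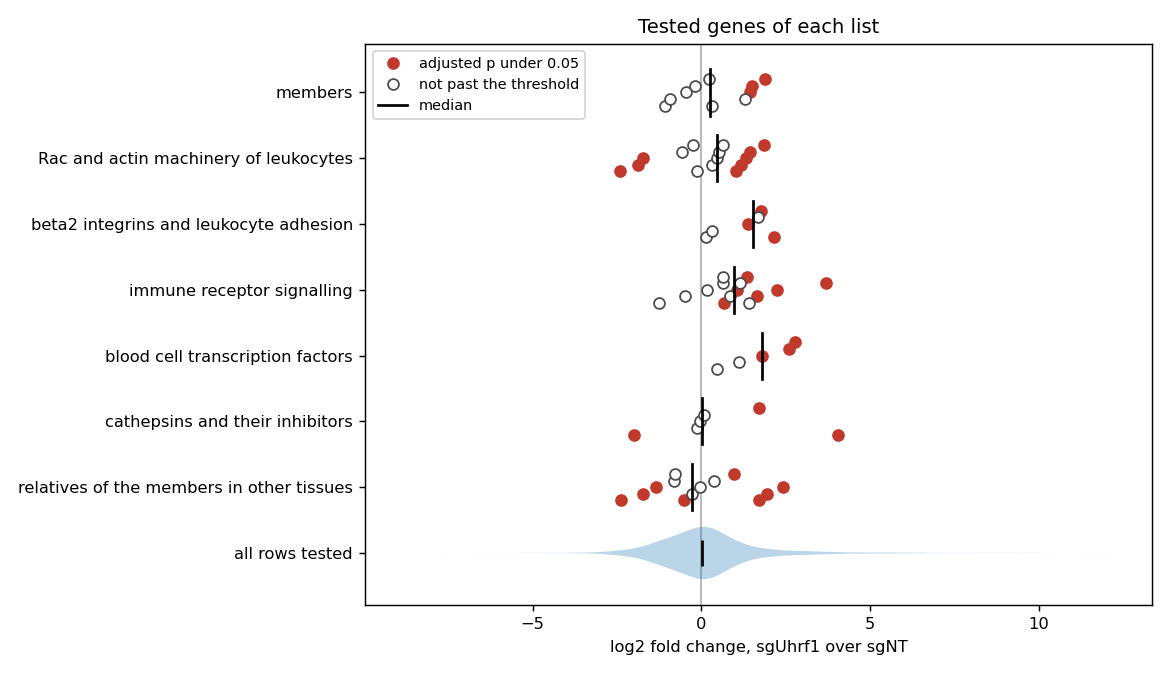
Log2 fold change, sgUhrf1 over sgNT, of every tested gene of the 10 (members), of the pathway lists and of the relatives in other tissues, 1 point per gene, with filled points past the adjusted p of 0.05, a bar at the median and the spread of all rows tested as the bottom shape. Receptor signalling, adhesion and transcription factor genes lie mostly above 0, and the relatives lie on both sides.

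Relatives of the 10 genes that other tissues express were read beside them. Of 38 listed, 18 were measured and 13 tested, and 4 rose and 4 fell, with a median of -0.28. Plek2, the pleckstrin of other tissues, stood at 2.41 ± 0.30, Dock6 at 1.93 ± 0.38, Ctsh at 1.71 ± 0.23 and the epithelial integrin chain Itgb4 at 0.95 ± 0.30. Those that fell included the receptor phosphatases Ptpra at -2.37 ± 0.37 and Ptprk at -1.34 ± 0.44, and the exchange factor Dock1 at -1.73 ± 0.43. Not past the threshold were Vav2 at -0.80 ± 0.43, Ptprf at -0.79 ± 0.38, Cdc42 at -0.28 ± 0.29, Ctsl at -0.05 ± 0.25 and Ptprs at 0.37 ± 0.19. Plek and Plek2 both rose. The most-counted Vav1 row rose, while the other Vav1 rows and Vav2 did not pass.

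The genes whose levels followed the mean profile of the 10 most closely over the 6 tumours, by root mean square difference in centred log2 CPM among 4198 candidates, were Pold4 (0.092), Zfp385c (0.121), Ass1 (0.121), Slc41a2 (0.128) and Ankar (0.133). Pold4 held 106, 89.7 and 172 CPM in sgUhrf1 tumours, against 78.5, 90.1 and 105 CPM in sgNT tumours. None of the 5 passed the test. These 5 were picked for their closeness to a mean over genes with fold changes in both directions. That none passed therefore does not bear on the 10 genes. The 10 genes themselves lay 0.283 (Spi1) to 0.757 (Itgb2) from their own mean.

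Some markers of several leukocyte types that could carry these genes were higher in sgUhrf1 tumours, and those of monocytes and macrophages were not called. Few markers of each type were tested, and the counts stand beside the 20.6% of all genes tested by position that were higher. Of 14 T cell markers 8 were measured and 5 tested, and Cd8b1, Lck, Lat, Zap70 and Thy1, the last also a fibroblast marker, all rose. The 8 summed to 375 to 740 CPM in sgUhrf1 tumours, against 242 to 279 CPM in sgNT tumours, and Cd6 was at 0 in every tumour. Thy1 made up most of these sums, and the other 7 summed to 83.3 to 215 CPM in sgUhrf1 tumours, against 7.26 to 25.0 CPM in sgNT tumours. Of 10 dendritic cell markers 4 were measured, and both tested, Itgax of the adhesion list and Ccl22, rose. The 4 summed to 85.9 to 142 CPM in sgUhrf1 tumours, against 15.6 to 22.5 CPM in sgNT tumours. Itgax and Ccl22 made up most of these sums, and Zbtb46 and Flt3 were too low to test. Zbtb46 held 1.06, 0.635 and 0 CPM in sgUhrf1 tumours, against 0.792, 0.741 and 0.532 CPM in sgNT tumours. Flt3 held 0, 0.317 and 0 CPM in sgUhrf1 tumours and 0 CPM in every sgNT tumour. Of 12 neutrophil markers 2 were measured and tested, and Csf3r rose while Mmp8 stood at 0.15 ± 0.75. They summed to 76.7 to 122 CPM in sgUhrf1 tumours, against 6.23 to 15.4 CPM in sgNT tumours. Of 8 NK cell markers 3 were measured and only Klrd1 was tested, and it rose. The 3 summed to 26.2 to 63.3 CPM in sgUhrf1 tumours, against 3.71 to 12.8 CPM in sgNT tumours. Mast cell and basophil markers rose in 1 of 2 tested (Mcpt4), with 4 of 8 measured. They summed to 32.4 to 49.4 CPM in sgUhrf1 tumours, against 8.86 to 26.4 CPM in sgNT tumours.

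Monocyte and macrophage markers did not pass in any of 3 tested, with 4 of 14 measured and sums of 143 to 486 CPM in sgUhrf1 tumours and 165 to 267 CPM in sgNT tumours. C1qc stood at 0.72 ± 0.38, Trem2 at 1.07 ± 0.57 and Mrc1 at -0.67 ± 0.63. Platelets also hold pleckstrin, and Itga2b, the only measured one of 8 platelet markers, was too low to test, at 1.76 to 4.43 CPM in sgUhrf1 tumours and 0.889 to 1.58 CPM in sgNT tumours. Epithelial markers, which tumour cells can carry, rose in 2 of 2 tested, with 3 of 8 measured and sums of 1681 to 2811 CPM in sgUhrf1 tumours, against 155 to 436 CPM in sgNT tumours. The part of these cells in the results above was not tested.

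The B cell marker Ms4a1 was at 0, 0.159 and 0.660 CPM in sgUhrf1 tumours, against 0, 0.296 and 58.3 CPM in sgNT tumours. It stood apart in sgNT replicate 3, the tumour with the highest level in both Ptprc rows that pointed lower. Without that tumour the log2 fold change of the main Ptprc row was 0.57 (adjusted p = 0.328). Skeletal muscle marker RNA was high in sgUhrf1 replicate 1 and sgNT replicate 2, where Ckm held 186 and 243 CPM, against 18.0 CPM or less in the other 4 tumours. Without these tumours Vav1 was the only gene of the 10 to pass (10.2% of all rows were then higher), and Ctss stood at 1.32 (adjusted p = 0.0531) and Plek at 1.63 (adjusted p = 0.0798).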

How the data were processed

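The authors deposited raw counts, whole numbers of read pairs per annotated gene, 1 table per tumour. The tools were fastp, STAR and featureCounts and the build GRCm38, per the submitters' processing notes. The featureCounts version (2.0.1), the GENCODE M26 annotation and counting without strand come from the file headers. Since M26 lists GRCm39 positions, a row was named by the GENCODE M21 gene of which it covers at least 50 bp of exon, if it touches no exon of another gene (small RNAs aside). This named 13437 of 53599 rows, with 40.3% of the counts; introns and antisense reads within a row are counted too. The most-counted row stood for a gene.

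Counts were tested with edgeR 4.0.16 in R 4.3.3 (quasi-likelihood F test, TMM, filterByExpr with a minimum count of 10 and total of 15, threshold 0.05 over 10503 rows), and the script was tested on simulated data. DESeq2 1.42.0 and limma 3.58.1 were alternatives. Ratios used a prior count of 2 on log2 CPM and exact permutation tests. A floor of 3 counts equals 0.445 to 0.660 CPM and covers counting error only. The labels do not tie tumours to animals, so p-values measure the spread between these tumours. The 10 genes and all lists were chosen with earlier results of these data known. Named are the 10 genes, up to 4 called genes per list and direction with mean log2 CPM of at least 1, every tested relative but 1, which is not reported here, and the 5 closest profiles. Promoters came from RefSeq on GRCm38.p6.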

Additional observations from a re-analysis of the deposited data

How the results depend on the processing

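The counts of rows higher and lower were 2121 and 2066. Leaving out each tumour in turn gave 1431 to 2020 higher and 1259 to 1908 lower, and leaving out sgUhrf1 replicate 1 and sgNT replicate 2 together gave 1094 and 771. Of the 10 genes, 3 were higher and 0 lower. The number higher was 2 to 3 when each tumour was left out, 1 without both of those tumours, and 0 of 4 genes measured with rows of at least 200 bp of exon, where Vav1 is read from its Clpp row. The number lower was 2 without the filter on low counts, 1 with at least 50 counts in 3 tumours, 2 with limma-voom, and 0 to 2 when each tumour was left out, being 2 without sgUhrf1 replicate 3. The genes called lower were Itgb2 and Arhgdib, and with at least 50 counts Itgb2 alone. The direction changed for Ptprc without both tumours (-0.0022) and with all its rows summed (-0.19), for Spi1 with limma-voom (-0.044) and without sgUhrf1 replicate 3 (-0.41), and for Dock2 without sgUhrf1 replicate 2 (0.016). Leaving out each tumour in turn gave 0.13 to 0.57 for Ptprc, -0.41 to 0.56 for Spi1 and -0.50 to 0.016 for Dock2. The Spi1 ratio to Ptprc became 0.44 with summed rows. The cause was not tested.

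Tumours with the same number did not deviate together (r = -0.079, -0.021 and 0.050 across rows), and 2 of 6 tumours correlated best with their own number. With the replicate number as a block, 1838 rows were higher and 1807 lower, and 3 of the 10 genes were higher and 2 lower, where 17.5% of rows were higher and 17.2% lower. The stricter count filter left no value for Rac2 and Dock2, and the 200 bp minimum left none for 6 genes. Rows with few counts, such as those of Rac2 and Dock2, limit what can be detected.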
